A study of Mus musculus with 2 samples.

Results

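The genes described here are 6 ligands and 4 receptors of the epidermal growth factor (EGF) family: Egf, Hbegf, Areg, Ereg, Tgfa, Nrg1, Egfr, Erbb2, Erbb3 and Erbb4. They were taken by symbol and are 10 of the 31053 genes in the count matrices. All 10 had unique molecular identifiers (UMIs, tags that each mark 1 captured transcript) in the I-PpoI library, and all except Areg in the wild-type library. The study dissociated mouse kidney cortex with collagenase and pronase and sequenced single cells on a droplet platform. One library, called I-PpoI below, came from a mouse kidney with podocyte-specific expression of I-PpoI, a homing endonuclease that cuts DNA at a fixed recognition site, and the other from a wild-type kidney, both at 12 weeks of age. The labels give neither the promoter or Cre line that drives I-PpoI nor the number or sex of the animals, and no further allele or treatment.

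With 1 library per group there was no replicate, so no difference below carries a p-value. A ratio is the level in I-PpoI over the level in wild-type, a level is the gene's share of all UMIs of the same cells, on the usual CPM scale, and the 95% intervals are exact and cover counting error only. A value was called higher or lower when its ratio was at least 2-fold, which is a rule of size, and it was compared only in cell classes with at least 20 cells in each library and at least 20 UMIs of the gene over both.

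EGF family ligands are made as membrane-bound precursors, are cut free by sheddases such as Adam17 and Adam10, and bind receptor tyrosine kinases that pair up and signal through RAS and ERK. Egf, Areg and Tgfa bind Egfr, Hbegf and Ereg bind both Egfr and Erbb4, and Nrg1 binds Erbb3 and Erbb4, while Erbb2 has no ligand of its own and serves as a partner. In the kidney, Egf is made by the thick ascending limb and the distal convoluted tubule, is released into the urine and promotes magnesium uptake through the channel Trpm6, and Egfr on tubule cells takes part in regrowth after injury.

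The I-PpoI library held 4061 cells after filtering and the wild-type library 3094, with medians of 6626 and 3487 UMIs per cell and of 3.33% and 14.3% mitochondrial UMIs. Depth, mitochondrial share and makeup therefore differed between the libraries along with the genotype and cannot be told apart from it. Cells were grouped into 31 clusters without using the 10 genes, 25 clusters were given 1 of 11 class names from marker genes, and 6 stayed unnamed. Macrophage-like cells made up 39.6% in I-PpoI against 5.72% in wild-type, and proximal tubule-like cells 11.5% against 44.8%. No cluster could be named podocyte, the cell in which I-PpoI is expressed. The libraries shared 6 cell barcodes, 3 of them among the cells used.

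The promoters of Egf and Areg are shown first, because these ligands differed most between the libraries: Egf had 372 UMIs in I-PpoI and 18217 in wild-type, and Areg 374 and 0. RefSeq promoter windows, 250 bases before to 50 after an annotated start on build GRCm38.p6, matched 6 of the 10 genes with 7 windows. Capitals mark the cyclic AMP response element TGACGTCA and the TATA box TATAAA, searched on both strands, and the 2 motifs do not overlap.
Areg, chr5:91139349-91139648, + strand: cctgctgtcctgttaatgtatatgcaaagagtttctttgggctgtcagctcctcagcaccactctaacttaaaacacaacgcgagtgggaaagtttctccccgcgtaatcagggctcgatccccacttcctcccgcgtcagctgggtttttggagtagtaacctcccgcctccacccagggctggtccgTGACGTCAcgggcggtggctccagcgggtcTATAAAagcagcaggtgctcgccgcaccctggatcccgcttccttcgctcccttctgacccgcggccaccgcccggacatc
Egf, chr3:129755273-129755572, - strand: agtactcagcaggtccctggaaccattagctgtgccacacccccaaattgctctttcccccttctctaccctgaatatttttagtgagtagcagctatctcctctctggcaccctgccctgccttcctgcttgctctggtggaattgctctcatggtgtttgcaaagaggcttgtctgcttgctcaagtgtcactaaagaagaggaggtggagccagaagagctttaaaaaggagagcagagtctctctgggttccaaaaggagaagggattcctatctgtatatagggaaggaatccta
The first base of TGACGTCA in the Areg window is at position -61 from the start, and that of TATAAA at position -31. Of all 32851 windows, 1.79% hold the first motif and 13.6% the second. The AP-1 site TGANTCA was also searched on both strands and is in 7.81% of all windows. It was found in none of the 7 windows of the family, and the other motifs in none but that of Areg.

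Egf, the ligand that gives the family its name (chromosome 3, 129677565 to 129755316, minus strand), was detected in 66 I-PpoI cells and 334 wild-type cells. In wild-type, 89.0% of its UMIs lay in thick ascending limb-like cells and 9.80% in distal convoluted and connecting tubule-like cells. Both segments are the known sources of renal Egf. The wild-type intervals of these classes did not overlap.

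In thick ascending limb-like cells the Egf level was 111 CPM in I-PpoI (interval 79.9 to 151, 41 UMIs in 105 cells) and 8785 CPM in wild-type (8650 to 8921, 16210 UMIs in 247 cells). The I-PpoI level was 78.9 times lower. Wild-type cells of this class fell into 2 clusters of unlike depth, and 1 of them, cluster 30, held 69 wild-type cells with a median of 21313 UMIs and no I-PpoI cell. Every cell of cluster 30 carried Egf, from 12 to 620 UMIs with a median of 185. In cluster 10, which both libraries share, Egf stood at 111 CPM in I-PpoI and 4382 CPM in wild-type, 39.4 times lower (28.9 to 55.0). Egf was detected in 14 of the 105 cells from I-PpoI in cluster 10 and in 111 of the 178 from wild-type. The single I-PpoI cell with the most Egf held 17 of the 41 UMIs. Without the cell of the most Egf in each library the I-PpoI level was 69.7 CPM, 123 times lower in the class and 61.6 times lower in cluster 10.

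The share of cells with Egf in the class as a whole also differed at equal depth. With every thick ascending limb-like cell thinned to 1000 UMIs, Egf was detected in 6.02% of 83 cells (interval 1.98 to 13.5) from I-PpoI, against 78.8% of 179 (72.0 to 84.5) from wild-type. Before thinning the shares were 13.3% and 72.9%. The wild-type shares include cluster 30, which has no I-PpoI cell and in which every cell carried Egf. In cluster 10 alone the shares before thinning were 13.3% and 62.4%, and no thinned share is given for it. Macrophage-like cells, which should lack Egf, had it in 0 of 1585 and 0 of 175 thinned cells, and in 0.373% and 2.26% of cells before thinning, at median depths of 8078 and 4440 UMIs.

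Other transcripts of the segment were also lower in I-PpoI, but by less. Umod, which encodes uromodulin, had a ratio of 0.369 (0.354 to 0.385) in the class and 0.608 in cluster 10, and Slc12a1, the sodium-potassium-chloride cotransporter, had 0.304 and 0.447. Among cells of cluster 10 with a UMI of Umod, Egf was also detected in 13 of 76 from I-PpoI (17.1%, 9.43 to 27.5) and 107 of 147 from wild-type (72.8%, 64.8 to 79.8). Per 1000 UMIs of Umod, these cells held 17.1 UMIs of Egf in I-PpoI and 416 in wild-type. Lcn2, a secreted protein made by injured tubule, was 208 times higher in the I-PpoI cells of the class (137 to 333). Their median mitochondrial share, 21.6% against 33.8%, also differed, and its part in the result was not tested.

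**Figure D1:**
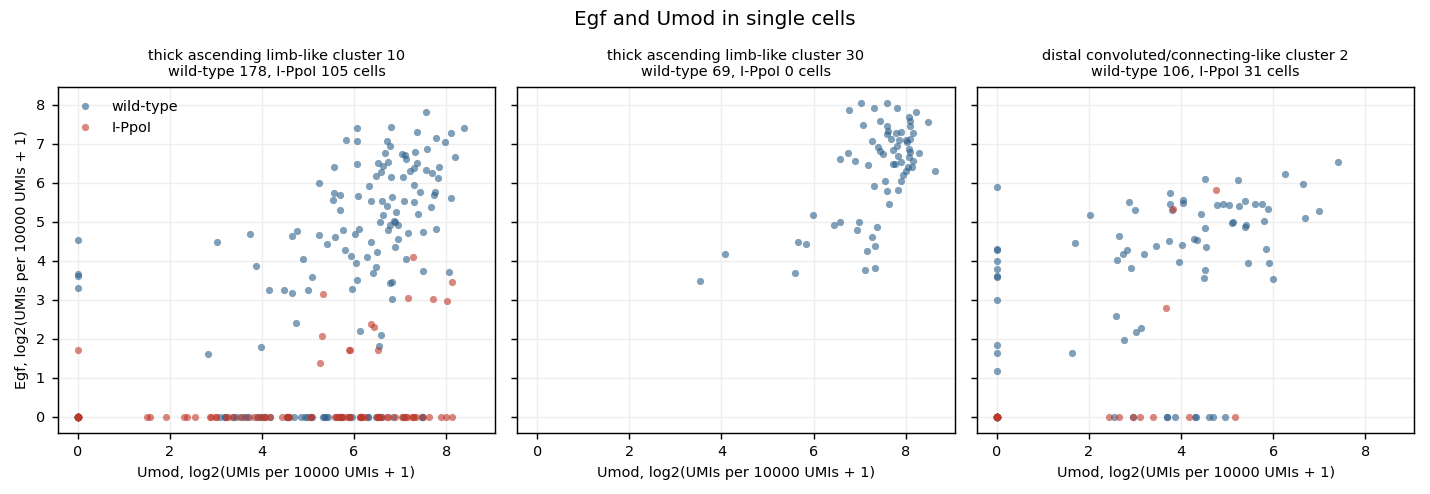
Each point is 1 cell; the axes give log2 of Egf and Umod UMIs per 10000 UMIs of the cell plus 1, for thick ascending limb-like clusters 10 and 30 and distal convoluted and connecting tubule-like cluster 2, with I-PpoI in red and wild-type in blue. In cluster 10 most I-PpoI points lie on the zero line of Egf across the range of Umod, with 14 of 105 above it, against 111 of 178 in wild-type.

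Distal convoluted and connecting tubule-like cells gave an Egf level of 1825 CPM in I-PpoI and 2917 CPM in wild-type, a ratio of 0.626 (0.535 to 0.728). That ratio rests on 1 cell: 181 of the 185 I-PpoI UMIs came from a single cell of 32897 UMIs. Without it the I-PpoI level was 58.4 CPM, 47.3 times lower than the 2766 CPM of wild-type treated the same way. Egf was detected in 3 of 31 cells from I-PpoI and 66 of 106 from wild-type, and the ratio was 0.0270, past the 2-fold rule, with cells of at most 25% mitochondrial UMIs. Trpm6, the magnesium channel that Egf is known to stimulate, had 8 and 124 UMIs in the class, a ratio of 0.389 (0.164 to 0.792). All 8 I-PpoI UMIs lay in 1 cell, so this ratio also rests on 1 cell. In I-PpoI, Trpm6 was detected in 1 of the 3 cells with Egf and 0 of the 28 without. In wild-type the counts were 33 of 66 and 3 of 40. Wild-type cells with Egf were also deeper, at a median of 4696 UMIs against 992, so these shares cannot be told apart from depth. Trpm6 was 1 of 5 measured genes of distal magnesium handling, of which no other differed by 2-fold. In this class 14.4% of all genes were lower and 5.91% higher. The markers of the class did not move together: 2 of 10 were higher, the calcium-binding proteins S100g at 6.42 (6.16 to 6.70) and Calb1 at 3.803 (3.53 to 4.09), and 2 were lower, Trpm6 and the kallikrein Klk1 at 0.431. Slc12a3, the sodium-chloride cotransporter of the distal convoluted tubule, had a ratio of 0.571. The part of these marker differences in the Egf and Trpm6 values was not tested.

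Low Egf counts in 3 other classes differed in the same direction. Principal-like cells had 1 UMI in I-PpoI and 117 in wild-type, of which 105 were in 1 cell, and the wild-type level without that cell was 12.2 CPM. The level was 1.84 and 5.97 CPM in proximal tubule-like cells, and 1.25 and 9.44 CPM in endothelial-like cells. Macrophage-like cells, which should lack Egf, stood at 0.422 CPM in I-PpoI and 5.01 CPM in wild-type, from 6 and 4 UMIs. Whether the levels in proximal tubule-like and endothelial-like cells are background of each library or expression was not tested. In cluster 0, which has no class name and is led by Lcn2, S100g, Clu, Wfdc2, Klk1, Aqp2, Calb1, Umod, Fxyd4 and Mal, Egf was instead higher in I-PpoI, at 28.4 against 3.72 CPM, a ratio of 7.64 (2.91 to 28.5). The I-PpoI cells of cluster 0 also carried thick ascending limb transcripts that the wild-type cells nearly lacked. There 8 of 8 such markers were higher, against 14.3% of all genes, among them Umod with 11331 and 68 UMIs and Slc12a1 with 2994 and 1. Ratios in cluster 0, here and below, therefore do not compare cells that are alike in these markers.

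Hbegf, a ligand that tethers to heparan sulfate and binds Egfr and Erbb4, lies on chromosome 18 (36504927 to 36515805, minus strand) and had 1930 UMIs in 425 I-PpoI cells and 645 UMIs in 373 wild-type cells. The classes that held it differed between the libraries. Among named classes of wild-type, endothelial-like cells stood first, with 45.6% of the UMIs and 95.7 CPM (85.0 to 107), followed by mesangial, mural and renin-like cells at 56.0 CPM. In I-PpoI principal-like cells stood first with 218 CPM (190 to 248), and the interval of cluster 0, at 194 CPM, overlaps theirs. The principal-like cluster is mixed: Atp6v1g3, Tmem213 and Car12 are among its 10 leading genes beside Aqp2, Fxyd4 and Hsd11b2, and Atp6v1g3 is a gene of intercalated cells. Cluster 21, without a class name and led by Tagln, Ctgf and Cdh6, was high in both libraries, at 122 CPM in 34 I-PpoI cells and 165 CPM in 17 wild-type cells, too few to be compared.

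Principal-like cells, thick ascending limb-like cells and cluster 0 had more Hbegf in I-PpoI, while distal convoluted and connecting tubule-like cells had 0 and 4 UMIs. Principal-like cells had 218 and 48.1 CPM, a ratio of 4.53 (3.31 to 6.31), and it was detected in 23 of 46 and 13 of 56 cells. Thick ascending limb-like cells had 65.2 and 12.5 CPM, a ratio of 5.23, which was 4.09 (1.71 to 11.2) in the shared cluster 10. Cluster 0, whose cells are unlike between the libraries, had 779 and 38 UMIs, or 194 and 35.3 CPM, a ratio of 5.50 (3.97 to 7.83). No single cell decided these ratios, which were 5.29, 4.89 and 5.58 without the cell of the most Hbegf in each library. Thinning to 1000 UMIs kept the order in principal-like cells, with Hbegf in 15.9% of 44 cells (6.64 to 30.1) against 4.08% of 49 (0.498 to 13.98), intervals that overlap. Thinned macrophage-like cells of I-PpoI had it in 0.126%.

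Proximal tubule-like cells had 74.6 CPM of Hbegf in I-PpoI (67.5 to 82.2) and 18.4 CPM in wild-type (15.8 to 21.4), a ratio of 4.05. Different clusters hold this class in the 2 libraries, and the ratio depends on them. Cluster 4, led by C3, Spp1, Spink1, Slc13a1 and Fgg, held 409 of the 469 I-PpoI cells and 45 of the 1387 wild-type cells, and clusters 13, 22, 25, 26, 27 and 28 held the other wild-type cells. Within cluster 4 the direction was the other way, 78.0 CPM in I-PpoI and 138 CPM in wild-type, a ratio of 0.567 (0.441 to 0.737), whereas the 1342 wild-type cells outside cluster 4 had 11.4 CPM (9.33 to 13.9). Without the cell of the most Hbegf in each library the ratio in cluster 4 was 0.496, past the 2-fold rule. With only those clusters of the class that hold at least 20 cells of each library, the ratio was 0.903.

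The 45 wild-type cells of cluster 4 differed from its I-PpoI cells in identity as well. Of 20 proximal tubule markers measured in cluster 4, 19 were higher in I-PpoI, against 15% of all genes there. Among them were Lrp2, the endocytic receptor megalin, with a ratio of 5.46 and Slc34a1, the phosphate transporter, with 5.63. Cldn19, a tight-junction protein of the thick ascending limb, had 3 and 150 UMIs, and the injury genes Havcr1 and Vcam1 had 1503 and 2403 UMIs in I-PpoI and 0 in wild-type. Against all wild-type cells of the class, 13 of 21 proximal markers were lower in I-PpoI, beside 7.41% of all genes, with Lrp2 at 0.230. Neither ratio therefore compares cells that are alike in these markers.

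**Figure D2:**
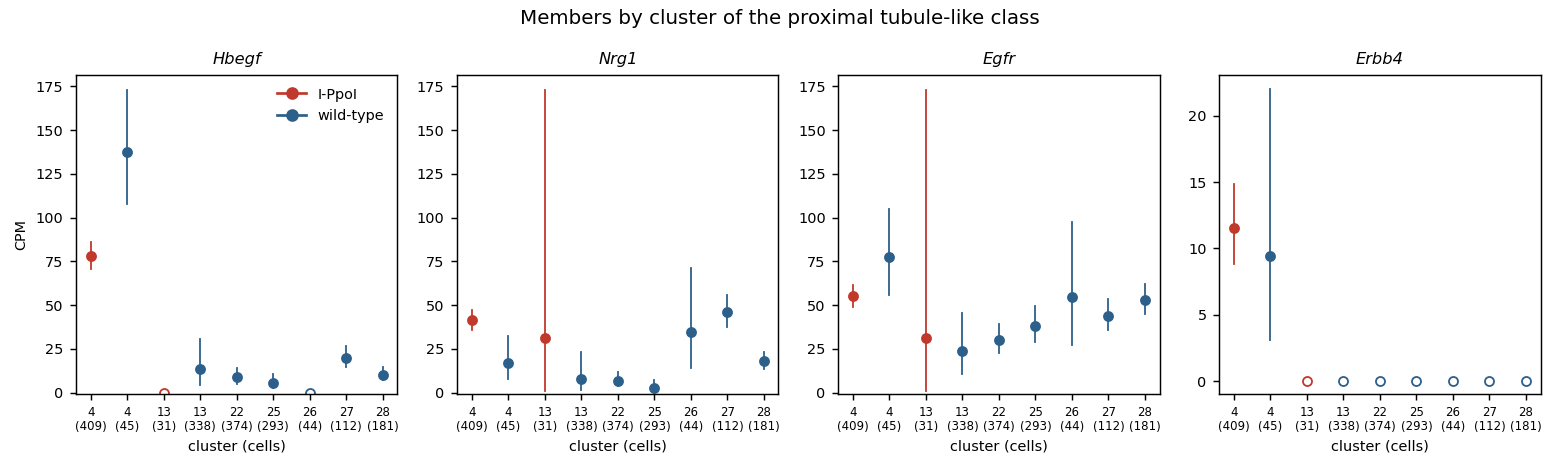
CPM of Hbegf, Nrg1, Egfr and Erbb4 in each cluster of the proximal tubule-like class with at least 30 cells, with the number of cells in brackets; bars are 95% counting intervals, open circles mark 0 UMIs and carry no bar. For Hbegf, I-PpoI cluster 4 at 78.0 CPM lies below the 45 wild-type cells of that cluster at 138 CPM and above every other wild-type cluster, the highest of which is 19.7 CPM; Erbb4 has no UMI outside cluster 4.

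Hbegf was lower in I-PpoI in vessel-wall cells, by 2-fold or close to it. Endothelial-like cells had 48.6 and 95.7 CPM, a ratio of 0.508 (0.406 to 0.631), just inside the 2-fold rule, and mesangial, mural and renin-like cells had 12 and 26 UMIs, a ratio of 0.405 (0.186 to 0.832), which was 0.794, within 2-fold, with classes set by each cell's own marker score. In endothelial-like cells the clusters again differ: cluster 17 held 405 wild-type and 10 I-PpoI cells at 120 CPM in wild-type, and cluster 3 held 258 I-PpoI cells at 47.2 CPM. In cluster 14, with 72 cells from each library, the ratio was 0.732 (0.460 to 1.16), an interval that includes 1, where 5.69% of all genes were higher and 7.01% lower. Without the cell of the most Hbegf in each library the ratio in the class was 0.492, past the rule. Immediate early genes went the other way in the same cells. In I-PpoI endothelial-like cells 15 of 17 genes of the dissociation stress list were higher, against 6.13% of all genes. Fos stood at 25.9 and Atf3 at 17.2, and the part of these genes in the result was not tested.

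Fibroblast-like cells had 178 UMIs of Hbegf in I-PpoI and 2 in wild-type, where the class had 31 cells, a ratio of 3.82 with an interval of 1.04 to 31.8. It was 5.98 without the cell of the most Hbegf in each library and 0.602, the other direction, at a coarser clustering (resolution 0.5). Macrophage-like cells had 58 UMIs in 31 of 1607 I-PpoI cells and none in 177 wild-type cells, in which the I-PpoI rate would give 3.26 UMIs, so no difference was detectable at this depth. Neutrophil-like cells had 32 UMIs of Hbegf in I-PpoI, 69.4 CPM, and were not compared because wild-type had 12 such cells.

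Areg, amphiregulin, a ligand of Egfr made by epithelium and by several immune cells in injured tissue (chromosome 5, 91139599 to 91148432, plus strand), had 374 UMIs in 70 of 4061 I-PpoI cells and 0 UMIs in 3094 wild-type cells. None was found among all 5536 wild-type barcodes before filtering either. A count of 0 allows up to 0.153 CPM over the whole wild-type library, against 10.4 CPM in I-PpoI, but the classes that held Areg were scarcer in wild-type, T cell-like cells at 1.94% against 6.48%. The values by class are therefore the ones to compare. Of the I-PpoI UMIs, 52% lay in macrophage-like cells, 32% in T cell-like cells, and 7% in each of the fibroblast-like and proximal tubule-like classes.

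T cell-like cells had the highest Areg level, 137 CPM (114 to 165), from 118 UMIs in 20 of 263 I-PpoI cells, and none in 60 wild-type cells. Set against 3 UMIs in those 60 cells, the level was 8.92-fold higher, and the exact interval of the ratio began at 7.14. One cell held 36 of the 118 UMIs. Without that cell the level was 95.9 CPM and the interval began at 4.65. The 20 cells with Areg carried Gata3, a transcription factor of type 2 lymphocytes, in 13 cells (65.0%, 40.8 to 84.6), against 73 of 243 cells without Areg (30.0%, 24.3 to 36.2). Il1rl1, the receptor for interleukin 33, was found in 45.0% and 10.3%, Foxp3, which defines regulatory T cells, in 45.0% and 13.2%, and Il2ra in 55.0% and 16.5%. Cd8a and Nkg7, genes of cytotoxic lymphocytes, were in none of the 20 cells and in 25.5% and 50.2% of the others. The mast cell genes Cpa3, Mcpt4 and Fcer1a had no UMI in either set. Median depth was 3290 UMIs with Areg and 2877 without, and these shares describe cells of 1 library.

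**Figure D3:**
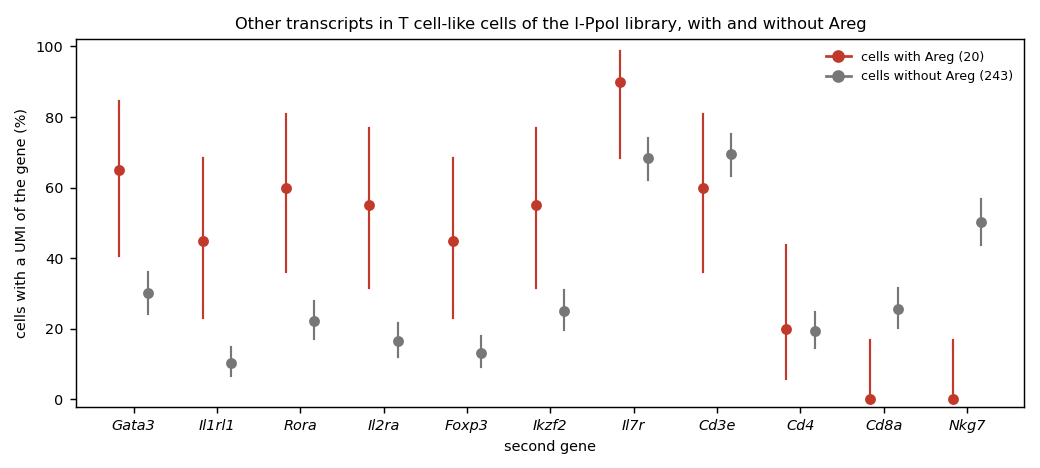
Percent of T cell-like cells of the I-PpoI library with a UMI of each of 11 genes, among the 20 cells with Areg (red) and the 243 without (grey); bars are exact 95% counting intervals. Gata3, Il1rl1, Rora, Il2ra, Foxp3 and Ikzf2 are more frequent in cells with Areg, at 45.0% to 65.0%, and Cd8a and Nkg7 are at 0% there.

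A list of genes of group 2 innate lymphocytes, regulatory T cells and mast cells was also read over the whole T cell-like class. Of its 7 genes with enough UMIs, 5 were higher in I-PpoI and none lower, with a median log2 ratio of 2.66 against -0.04 over all genes of the class. Il7r, the interleukin 7 receptor, had 890 and 27 UMIs, a ratio of 7.48 (5.10 to 11.4), and Ikzf2, a factor of regulatory T cells, had 288 and 13, a ratio of 5.03. The genes named here mark the lymphocytes of the list and none is particular to mast cells. Foxp3 had 81 UMIs and Il1rl1 51 UMIs in I-PpoI, each with 0 in wild-type. Both are among the 5 higher genes and enter the median, but met the minimum only through I-PpoI and could not have been called lower. Against 3 UMIs they were 6.13-fold and 3.86-fold higher, with intervals that began at 4.87 and 3.02. In this class 13% of all genes compared were higher in I-PpoI and 5.82% were lower, and Areg was the 1 family member with enough UMIs to compare.

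Macrophage-like cells had 194 UMIs of Areg in 25 of 1607 I-PpoI cells, 13.6 CPM, and 0 in 177 wild-type cells. The level was 3.63-fold higher against 3 UMIs, with an interval that began at 2.93. Cluster 11, led by Lyz2, Mmp12, Cxcl2, Ccl6 and Chil3 among other genes, held 123 of these UMIs in 9 of 217 cells, 46 of them in 1 cell, and cluster 7 held 66 in 13 of 468 cells. Of the 9 cells, 8 had Mmp12, a macrophage elastase (88.9%, 51.8 to 99.7), against 45.2% of the 208 others (38.3 to 52.2). Arg1, the arginase of wound-healing macrophages, was in 7 (77.8%, 40.0 to 97.2), against 51.4% (44.4 to 58.4). Chil3 was in none (0 to 33.6), against 36.1% (29.5 to 43.0). Each pair of intervals overlaps, and median depth was 14585 UMIs with Areg and 11195 without. Wild-type had 9 and 8 cells in clusters 11 and 7, and most of its macrophage-like cells, 157 of 177, lay in cluster 8. Without the cell of the most Areg in each library, the interval of the ratio began at 0.355 in cluster 11 and 0.103 in cluster 7. So within either cluster, treated this way, no difference was detectable, and the higher value of the class compares unlike mixes of clusters. Proximal tubule-like cells had 27 UMIs in 11 I-PpoI cells, 4.96 CPM. That was 15.8-fold higher than 3 UMIs would be in the 1387 cells from wild-type, with an interval that began at 12.0. All 27 came from cluster 4, in whose 45 wild-type cells the I-PpoI rate falls under 3 UMIs, so within that cluster no difference was detectable. Fibroblast-like cells held 25 UMIs, 11 of them in 1 cell, with 31 wild-type cells to compare.

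Ereg, epiregulin, lies 45952 bases from Areg on the same chromosome and strand and binds Egfr and Erbb4. It had 62 UMIs in 33 I-PpoI cells and 1 UMI in wild-type. Fibroblast-like cells held 42 of the I-PpoI UMIs in 29 cells, 11.2 CPM, and macrophage-like cells the other 20, of which 19 were in cluster 11 and 14 in 1 cell. Both classes were at 0 in wild-type, where the I-PpoI rate would give 1.80 and 1.12 UMIs, so neither difference was detectable. Areg was detected in 1 of the 29 fibroblast-like cells with Ereg and 7 of the 280 without. In cluster 11, Ereg was detected in 3 of the 9 cells with Areg and 0 of the 208 without. Among fibroblast-like cells, those with Ereg had Hbegf in 44.8% and those without in 12.9%, at median depths of 22305 and 9337 UMIs.

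Tgfa, a ligand of Egfr shed by Adam17, had 62 UMIs in 53 I-PpoI cells and 58 UMIs in 32 wild-type cells, the fewest of the 10 genes after Ereg. Endothelial-like cells had 23 UMIs in I-PpoI and 8 in wild-type, 9.55 and 2.60 CPM, a ratio of 3.67 (1.58 to 9.49). Most of the I-PpoI UMIs, 19 of 23, were in cluster 3. In cluster 0, whose cells are unlike between the libraries, the direction was the opposite. It had 19 and 23 UMIs, 4.73 and 21.4 CPM, a ratio of 0.222 (0.114 to 0.425).

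Nrg1, a neuregulin that binds Erbb3 and Erbb4 (chromosome 8, 31814551 to 32884029, minus strand), had 389 and 226 UMIs. Proximal tubule-like cells held 58% of them in I-PpoI and 83% in wild-type, and this class also held most of the UMIs of its receptor Erbb3, 50.5% and 77.8%. The level there was 41.2 CPM in I-PpoI (36.0 to 46.9) and 19.7 CPM in wild-type (17.0 to 22.7), a ratio of 2.09. That ratio was within 2-fold under several alternatives, down to 1.21 with classes set by marker score. Within cluster 4 it was 2.43 (1.26 to 5.38), or 4.74 without the cell of the most Nrg1 in each library. The wild-type side of cluster 4 was 9 UMIs in 4 cells, 5 of them in 1 cell. As said above, the cells of cluster 4 are not alike between the libraries. Wild-type clusters ranged widely, from 2.73 CPM in cluster 25 to 45.8 CPM in cluster 27. Cluster 21 stood at 46.7 CPM in I-PpoI (30.5 to 68.4, 26 UMIs), an interval that overlaps that of proximal tubule-like cells. Cluster 0 had 71 and 1 UMIs of Nrg1, 17.7 and 0.929 CPM, a ratio of 19.0 with an interval of 3.31 to 763, again between unlike cells. Macrophage-like cells had 41 and 1 UMIs, a ratio of 2.30 whose interval of 0.391 to 93.1 includes 1 and which was 1.23 with classes set by marker score, and cluster 11 held 31 of the 41.

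Egfr, the receptor of Egf, Areg, Tgfa, Hbegf and Ereg (chromosome 11, 16752203 to 16918158, plus strand), had 779 UMIs in I-PpoI and 527 in wild-type. It was found in the tubule and in fibroblast-like cells and was close to absent from endothelial-like cells, with 1 and 3 UMIs, and from T cell-like cells, with 1 and 0. Proximal tubule-like cells had 55.1 CPM in I-PpoI (49.1 to 61.7) and 44.2 CPM in wild-type (40.1 to 48.6), a ratio of 1.25 within the 2-fold rule, and 0.710 (0.510 to 1.01) in cluster 4. In I-PpoI the highest level was that of fibroblast-like cells, 76.7 CPM (68.1 to 86.1), which did not overlap the proximal tubule-like interval. In wild-type those cells had 6 UMIs, 37.3 CPM, and the ratio of 2.06 has an interval of 0.934 to 5.66 and was within 2-fold under several alternatives, down to 1.59. Thick ascending limb-like cells had 10 and 21 UMIs, a ratio of 2.39 (1.00 to 5.29), which was 0.622 with cells of at most 25% mitochondrial UMIs.

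Erbb2, the receptor without a ligand (chromosome 11, 98412470 to 98437716, plus strand), had 366 and 316 UMIs, and Erbb3, whose own kinase is weak and which relies on its partner, had 554 and 499 (chromosome 10, 128567523 to 128589652, minus strand). Neither differed by 2-fold in proximal tubule-like cells: Erbb2 had 22.6 and 14.99 CPM, a ratio of 1.51, and Erbb3 had 51.5 and 40.7 CPM, a ratio of 1.27. In cluster 4 the ratio of Erbb2 was 0.412 (0.274 to 0.637) and that of Erbb3 was 0.902. Principal-like cells had 61 and 26 UMIs of Erbb3, 59.6 and 25.5 CPM, a ratio of 2.34 (1.45 to 3.85). That call ended under several alternatives, with the lowest ratio, 1.26, when the top 4% of doublet scores were left out in both libraries. Thick ascending limb-like cells had 7 and 69 UMIs of Erbb2, a ratio of 0.508 (0.197 to 1.10), or 0.464 without the cell of the most Erbb2 in each library. The level of Erbb2 in fibroblast-like cells, 6.93 and 18.6 CPM, was lower by the rule but rests on 3 wild-type UMIs, and its interval of 0.114 to 1.92 includes 1.

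Erbb4, a receptor of Nrg1, Hbegf and Ereg (chromosome 1, 68032186 to 69108059, minus strand), had 415 and 316 UMIs, and its order over classes was led by the thick ascending limb-like class in both libraries. There the level was 97.8 CPM in I-PpoI (68.5 to 135) and 148 CPM in wild-type (131 to 167), a ratio of 0.661 (0.453 to 0.938), and in the shared cluster 10 it was 97.8 and 59.2 CPM, a ratio of 1.65 (0.970 to 2.85). Unlike Egf, Erbb4 was thus not lower by 2-fold in these cells. Cluster 0 had 292 and 20 UMIs, 72.8 and 18.6 CPM, a ratio of 3.92 (2.49 to 6.51). Its I-PpoI cells carried thick ascending limb transcripts that its wild-type cells nearly lacked, so this ratio compares unlike cells. In proximal tubule-like cells, 60 UMIs in 35 I-PpoI cells and 5 UMIs in 4 wild-type cells gave 11.03 and 0.524 CPM, a ratio of 21.05, or 31.8 without the cell of the most Erbb4 in each library. All of these UMIs were in cluster 4, where the levels of 11.6 and 9.43 CPM gave a ratio of 1.23 (0.497 to 3.91), and the 1342 wild-type cells outside it had none, which allows up to 0.333 CPM.

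**Figure D4:**
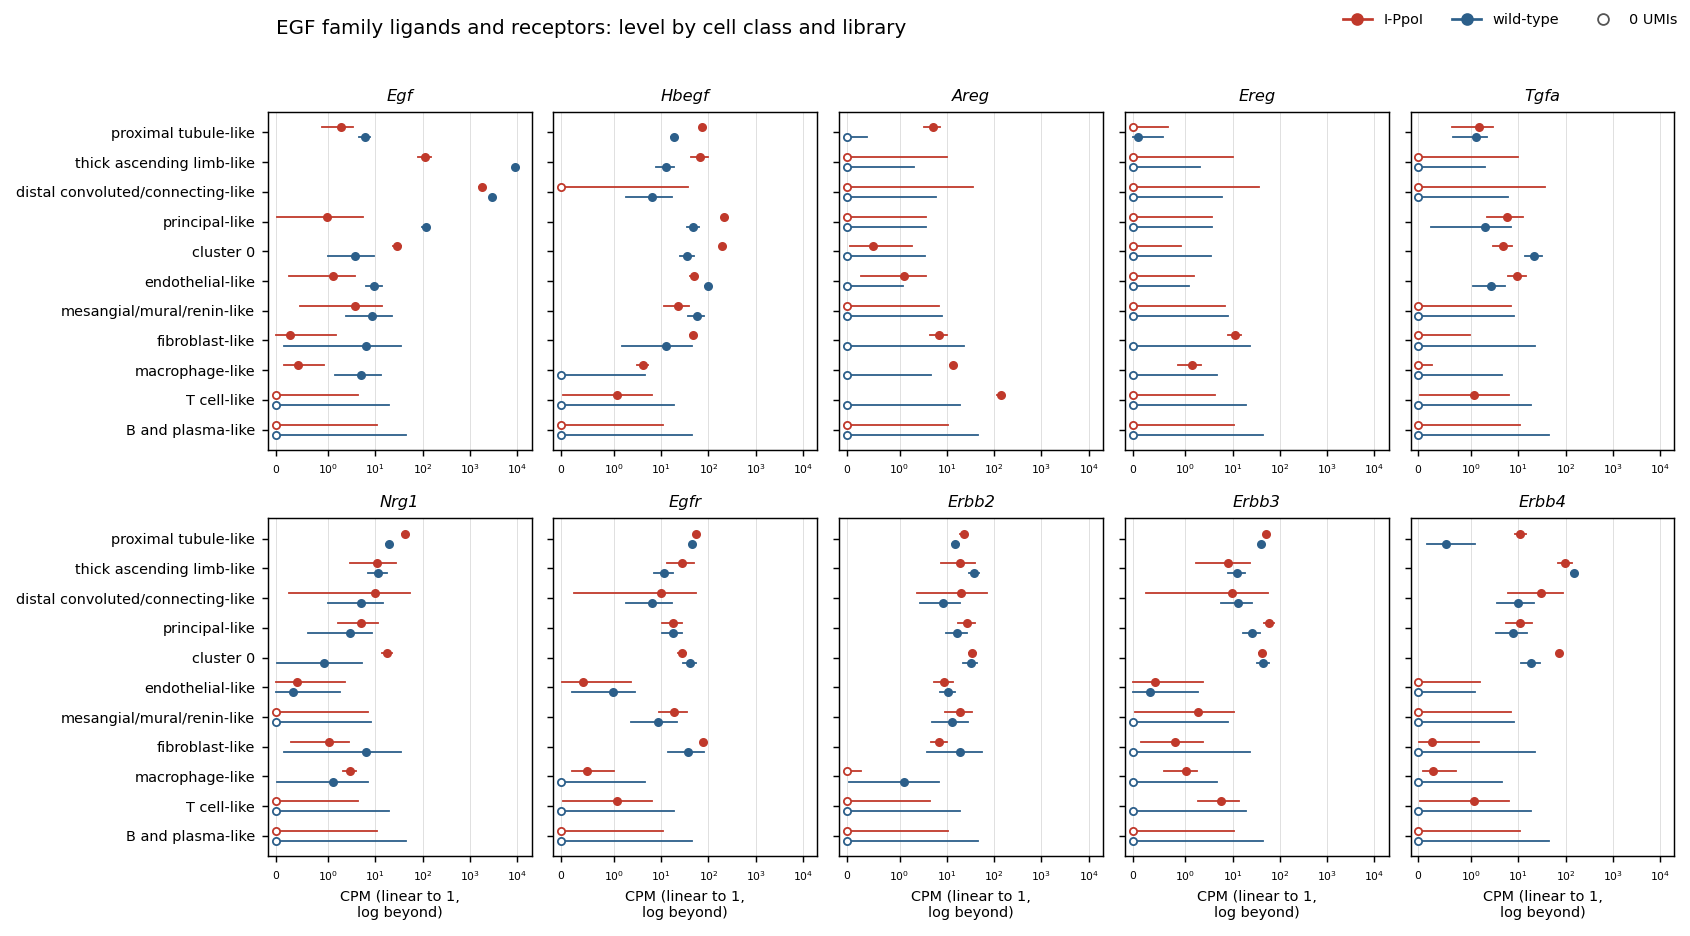
CPM of each gene in 10 named classes and cluster 0, in I-PpoI (red) and wild-type (blue); bars are exact 95% Poisson intervals, open circles mark 0 UMIs, and the axis is linear up to 1 and logarithmic beyond. Egf in thick ascending limb-like cells is at 111 CPM in I-PpoI and 8785 in wild-type, and Areg is open in every wild-type class. The 4 receptors lie mostly in the tubule rows, and Egfr also in the fibroblast-like row.

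Over the 10 named classes compared, 37 values of the 10 genes had enough UMIs: 14 were higher in I-PpoI, 6 lower and 17 within 2-fold. Over all genes in the same classes 11.1% of values were higher and 10.2% lower. Of the ligands, Hbegf was higher in 4 and lower in 1 of 7 classes, Areg higher in 3 of 4, and Egf lower in 4 of 5 and higher in none, 3 of the 4 being the low counts described above. Areg had 0 UMIs in wild-type, so it met the minimum only through I-PpoI and could not have been called lower. In macrophage-like and proximal tubule-like cells its UMIs lay mostly or wholly in clusters with few wild-type cells. Its 3 higher values are among the 14. Other higher values also met the minimum only through I-PpoI. They were Hbegf (178 and 2 UMIs) and Egfr (288 and 6) in fibroblast-like cells and Nrg1 (41 and 1) in macrophage-like cells. Tgfa (23 and 8) in endothelial-like cells and Erbb4 (60 and 5) in proximal tubule-like cells did so too. Of the lower values, Egf in principal-like, proximal tubule-like and endothelial-like cells met it only through wild-type. Of the receptors, Egfr was higher in 2 of 4 classes, Erbb3 in 1 of 3, Erbb4 in 1 of 2, and Erbb2 lower in 1 of 5. By class, 4 of 9 genes were higher and 1 lower in proximal tubule-like cells, where 21.5% of all genes were higher and 7.41% lower. It was 2 higher and 1 lower of 7 in thick ascending limb-like cells (8.38% and 20.3% of all genes), and 2 higher and 1 lower of 5 in principal-like cells (11.9% and 4.77%). The remaining classes gave 1 higher and 1 lower of 4 in endothelial-like cells (6.13% and 6.27%), 2 and 1 of 5 in fibroblast-like cells (10.8% and 15.4%), 2 and 0 of 4 in macrophage-like cells (9.81% and 8.22%), and 1 lower of 1 in mesangial, mural and renin-like cells (6.29% and 5.32%). Egf in distal convoluted and connecting tubule-like cells was within 2-fold (5.91% and 14.4%). In cluster 0, 4 of 8 genes were higher and 1 lower (14.3% and 7.34%), in cluster 4 alone 1 of 8 was higher and 2 lower (15% and 19.7%), and in cluster 10 alone 1 of 4 was higher and 1 lower (16.9% and 11.9%). The cells of cluster 0 and of cluster 4 differ in identity markers between the libraries.

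**Figure D5:**
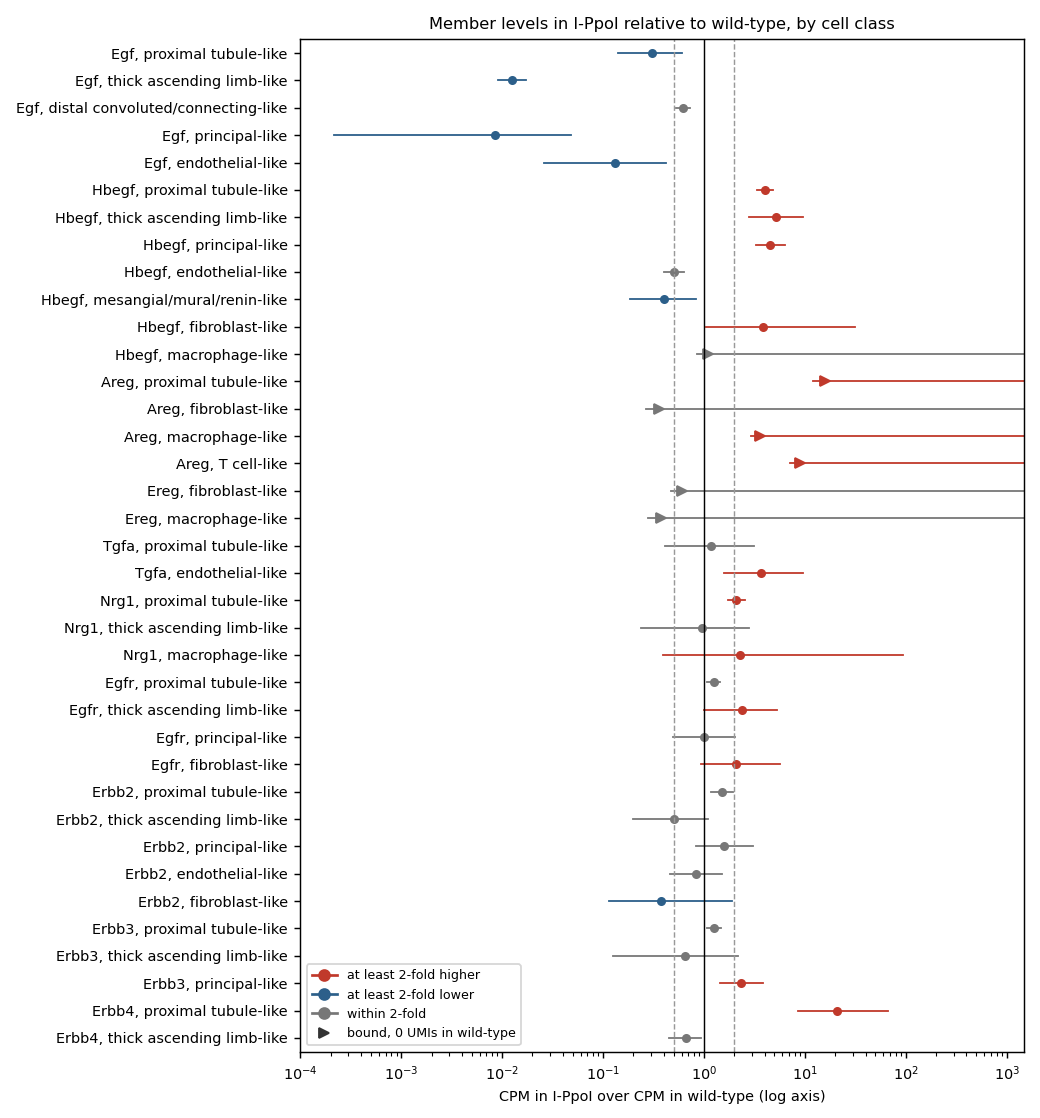
Ratio of CPM in I-PpoI over wild-type on a logarithmic axis for the 37 values compared, with exact 95% counting intervals; dashed lines mark the 2-fold rule, arrowheads mark bounds for genes with 0 UMIs in wild-type. The 14 higher values are red and the 6 lower values blue, with Egf in 4 of the 6 lower ones.

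Genes that act before and after the receptors were read from 5 lists. In proximal tubule-like cells 65 of these genes were measured, 22 were higher and 1, the sheddase inhibitor Timp3 (ratio 0.390), was lower. With 21.5% of all genes of the class higher, the counts of the next 3 lists are near that share and single out none of them. Of 10 ligand release genes 3 were higher: the membrane protease Mmp14 with 91 and 2 UMIs, the rhomboid protease Rhbdl2, and Rhbdf2, which carries Adam17 to the cell surface, with a ratio of 4.41 (2.95 to 6.72). Adam10 had a ratio of 1.94 and Adam17 0.778. Of 19 adaptor and relay genes 5 were higher, including the GTPases Rras2 at 3.54 and Nras at 3.04, with a list median log2 ratio of 0.24 against 0.33 over all genes. Of 24 turnover and feedback genes 5 were higher, among them the ERK phosphatase Dusp5 with 120 and 5 UMIs and the inhibitor Spry1 at 7.10 (5.06 to 10.2).

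Of 11 genes known to respond to ERK and measured in proximal tubule-like cells, 9 were higher and none lower, with a median log2 ratio of 3.44, and Klf6 stood at 13.9, Myc at 14.2, Ier3 at 12.5 and Tnfrsf12a at 11.4. Immediate early and heat shock genes that respond to cell dissociation were higher in the same cells, 14 of 17 with a median log2 ratio of 2.66, with Atf3 at 18.9, Fosb at 17.2 and Jun at 7.68. So were 12 of 14 tubular injury genes, in a class where 21.5% of all genes were higher. In cluster 4 alone, 4 of 11 ERK response genes were higher and 1 lower, and of the dissociation genes none was higher and 9 of 17 were lower, where 15% of all genes were higher and 19.7% lower. Both lists hold genes induced by many stimuli, and the part of dissociation in these values was not tested.

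In principal-like cells 9 of 10 ERK response genes were higher and 1, the cyclin Ccnd1 (0.173), was lower. Of all genes of that class 11.9% were higher and 4.77% lower. Among feedback genes, the inhibitor Errfi1, which binds Egfr, stood at 5.52 (3.84 to 8.16), Dusp6 at 5.58, and 14 of 17 dissociation genes were higher. In thick ascending limb-like cells 2 of 5 ERK response genes were higher, Klf10 at 10.0 and Klf6 at 3.28, Errfi1 stood at 3.85 (2.04 to 7.18), and 4 of 17 turnover and feedback genes were lower, near the 20.3% of all genes, among them Dusp6, an ERK phosphatase, at 0.358 (0.113 to 0.876). No gene of the adaptor and relay list differed by 2-fold there, and 10 of 14 dissociation genes were higher, against 8.38% of all genes. Among other ligands of the family, betacellulin (Btc) in the unlike cells of cluster 0 had 53 and 158 UMIs, a ratio of 0.0900 (0.0646 to 0.124), and 0.699 in principal-like cells.

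The genes whose pattern over 31 class sums of the 2 libraries was most like that of each member were found by Pearson correlation of log2(CPM + 10) over 11773 genes, as a description with shared libraries and depth. For Egf they were Gpx6 (0.95), Gm47708 (0.94) and Fads6 (0.94), and for Erbb4 they were Rps6ka6 (0.92), Casr (0.90), the calcium-sensing receptor, and Egfl6 (0.89). For Hbegf they were Vsig10 (0.87), Agrn (0.83) and Cttn (0.82), and for Areg Ccl1 (0.93), a chemokine, Tnfrsf4 (0.86), a costimulatory receptor of T cells, and Il7r (0.81). Nrg1 was nearest to Steap2 (0.88), Cftr (0.87) and Hoga1 (0.86), and Egfr to Bicc1 (0.91), Gpc4 (0.88) and Dync2li1 (0.88). Erbb2 was nearest to Lmo7, Syne2 and Tns1 (0.88 to 0.92), and Erbb3 to Grb7 (0.91), an adaptor that binds activated receptors of this family and Cxadr (0.90). Ereg and Tgfa had under 200 UMIs and were left out.

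In cluster 4 of I-PpoI, of the 86 cells with Hbegf, 64.0% also had Egfr (52.9 to 74.0), against 25.7% of the 323 cells without, and 68.6% and 21.98% had Erbb3. Cells with Hbegf were also deeper, at a median of 22268 UMIs against 4030, so these shares cannot be told apart from depth.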

How the data were processed

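The deposited files are raw UMI counts per gene and cell barcode. Per the labels' protocols, the authors made them with Cell Ranger v3.1 and a prebuilt mm10 reference from a Chromium 3' v3.1 kit, with Seurat v3 named for later steps; the file headers instead name Cell Ranger 6.0.2, and which was used is not settled here. The libraries held 5268 and 5536 barcodes and 37811289 and 27793633 UMIs (I-PpoI, wild-type). Cells with at least 200 genes and at most 50% mitochondrial UMIs were kept. Scrublet left out 30 I-PpoI cells at its own threshold; in wild-type that threshold marked 0.155%, so the top 4% of scores (123 cells) were left out. Counts scaled to 10000 were logged, and 2000 variable genes without the 10 members gave 30 components, 15 neighbours and Leiden clusters at resolution 1 (scanpy 1.11.5, Python 3.11.15). A cluster took the name with the largest share of its fixed markers at 25 CPM or more and at least 4-fold over the median cluster, given at least 3 such markers and no other name with more markers among its 10 leading genes, so the classes are rebuilt and may differ from the study's own. UMIs were summed per class; intervals are exact Poisson for levels, conditional binomial for ratios and Clopper-Pearson for shares. A gene at 0 is given as a bound against 3 UMIs of the class, which leaves out counting error in the other library. The calls were checked on simulated counts with known fold changes in some of the classes. Those counts carried counting error only, for genes with at least 20 expected UMIs in the smaller library. The check therefore does not bear on values that rest on single cells or on fewer UMIs.

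Named genes were all 10 members, up to 4 per list, class and direction ranked by the interval bound nearest 1, and the 3 nearest patterns of each member with at least 200 UMIs; transcripts of cell identity and co-detection were added after their values were seen. The members and lists were chosen with earlier results of these data known. Gene positions are from GENCODE M21 (GRCm38). Protein sequences were not used here, and a few genes that the rule names are not reported here.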

Additional observations from a re-analysis of the deposited data

How the results depend on the processing

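With 1 library per group, no sample could be left out and no test across samples was possible. No paired analysis was possible because each group has 1 library. Of the 37 values, between 0 and 9 moved beyond their counting interval (for bounds, by a set factor) under each alternative and at most 1 of those past the 2-fold rule changed direction; where an alternative left a class with too few cells or UMIs there was no value. Of values past the rule, directions changed for Egfr in thick ascending limb-like cells at a limit of 25% mitochondrial UMIs (0.622), for Hbegf in fibroblast-like cells at resolution 0.5 (0.602), and for Hbegf in proximal tubule-like cells with only clusters of at least 20 cells in each library (0.903). Without a change of direction, the call ended under at least 1 alternative for Areg (1.57) and Nrg1 (1.21) in proximal tubule-like, Nrg1 in macrophage-like (1.23), Erbb3 in principal-like (1.26), Egfr in fibroblast-like (1.59) and Hbegf in mesangial, mural and renin-like cells (0.794), each given at its value nearest to 1. Restricting to clusters of at least 20 cells in each library left 8 values at least 2-fold higher in place of 14, and 3 list genes lower in proximal tubule-like cells in place of 1. Median-of-ratios size factors gave 2 such list genes. With no minimum of UMIs, 12 values were lower in place of 6. Adding 1 CPM in place of 10 kept 12 of the 24 genes named for their pattern. Egf in thick ascending limb-like cells stayed between 0.00445 and 0.0254, and Areg in T cell-like cells, set against 3 UMIs, between 6.23-fold and 9.81-fold. Leaving out the top 4% of doublet scores in both libraries was added after seeing the data, moved 5 values and turned none past the rule. Intervals cover counting error only, and counts under 20 UMIs limit Ereg, Tgfa and the receptors outside the tubule.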
